A study of Mus musculus with 4 samples.

Results

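The immunoglobulin genes of the mouse liver were followed one library at a time, from the constant regions that set the antibody class to the variable (V) segments that set the binding site. The genes were taken by symbol: every heavy, kappa or lambda segment gene, and Jchain, that had at least 1 read over all 4 libraries. Of 25655 genes in the count table, 261 carried such a symbol and 142 of them had a read. These were 7 heavy chain constant genes, Igkc, 3 lambda constant genes, Jchain, 60 heavy V segments, 67 kappa V segments and 3 lambda V segments. The 119 symbols without a read in any library were all 17 D segments, the 4 heavy, 5 kappa and 5 lambda J segments, Ighe, Iglc4 and the remaining V segments.

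The study asked what loss of ADAR2, an enzyme that edits adenosine to inosine in RNA, does to the fatty liver of mice on a high-fat diet (HFD). Bulk liver RNA was sequenced in 2 HFD-WT libraries (ADAR2+/+, GluR-B R/R) and 2 HFD-KO libraries (ADAR2-/-, GluR-B R/R), from male B6129S mice obtained by intercrossing heterozygotes and given the diet for 12 weeks from 5 weeks of age. Both genotypes thus carried the edited form of the GluR-B receptor, which keeps mice without ADAR2 alive, and the knockout was present in every cell of the body, B cells included. The sources used here give a number of mice per group but not the number behind 1 library, so p values measure the spread between these libraries only.

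An antibody is built from heavy chains and light chains, and each chain joins a rearranged V region to a constant region. Naive B cells transcribe Ighm and Ighd from the same rearranged gene, class switching puts a gamma, alpha or epsilon constant region in their place, and plasma cells transcribe these genes at very high levels. The J chain links IgM and IgA into polymers that the receptor encoded by Pigr carries across epithelia, in rodents also from hepatocytes into bile. Hepatocytes are not known to rearrange these loci, which are transcribed by lymphocytes and plasma cells in the tissue and its blood. In bulk RNA, fewer such cells and less RNA per cell cannot be told apart.

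Library totals ran from 24480798 to 28691330 counts, and 3 counts, taken as the floor of detection, were worth between 0.1036 and 0.1256 CPM, the reads on a gene scaled to a fixed total, with library sizes adjusted by the trimmed mean of M values (TMM). The tissue label was checked against hepatocyte markers, and Alb, the serum albumin gene, had between 52653 and 66078 CPM in all 4 libraries, Cyp2e1 between 8735 and 10692 and Apoa1 between 6263 and 7327. Of 10 hepatocyte markers tested, 1 had an unadjusted p under 0.05 by edgeR, Serpina1a with a log2 difference of 0.32 (adjusted p = 0.474). Over all genes tested, 4.25% were higher and 4.73% lower by that rule. Pancreatic enzyme genes, which would mark adjoining pancreas, were at or near 0 apart from Cela1 and Cela2a, with 3 of 12 at 0 reads in every library. Cela1 had 8.96 to 11.5 CPM, and Cela2a had 17 reads (0.712 CPM) in HFD-KO 2 and 5 or fewer in each other library. Adarb1, which encodes ADAR2 (ENSMUSG00000020262, GRCm39 chr10:77126560-77254104), had 15.7 and 19.8 CPM in HFD-WT and 6.23 and 9.54 CPM in HFD-KO, so that each knockout library was below each wild-type library but kept reads on the gene. The fitted log2 difference was -1.17 (SE 0.20, edgeR adjusted p = 0.159). Over 9 alternatives the adjusted p for Adarb1 ran from 3.1e-07 to 0.971 and was under 0.05 in 5 of them, namely without the filter on low counts, with the replicate block, by DESeq2 and without either HFD-KO library. Chi-square between the replicates of a group, per degree of freedom, was 10.34 in HFD-WT and 40.97 in HFD-KO, so the replicates were further apart than counting alone gives.

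Immunoglobulin transcripts were abundant in 1 HFD-KO library and at the wild-type level in the other. Summed over the 142 genes, the HFD-WT libraries had 710 and 547 reads, HFD-KO 1 had 4274 and HFD-KO 2 had 621. In CPM this was 24.5 and 19.9 in HFD-WT, 162 in HFD-KO 1 and 26.0 in HFD-KO 2. HFD-KO 1 therefore stood at 7.31 times the HFD-WT mean and HFD-KO 2 at 1.17 times, and 87.3% of all knockout reads on these genes came from HFD-KO 1. The group means gave a log2 ratio of 2.08, which dropped to 0.23 when HFD-KO 1 was left out. No test was made of a sum, and with 2 libraries against 2 the smallest exact permutation p would be 0.333. HFD-KO 1 had the highest CPM for 88 of the 142 genes, where 26.5% of all genes with a read were highest in that library.

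Every kind of chain took part. Heavy constant reads numbered 341, 304, 2198 and 307 in HFD-WT 1, HFD-WT 2, HFD-KO 1 and HFD-KO 2, an order kept for all values given library by library here. Kappa V segments had 82, 47, 563 and 84 reads, and heavy V segments 35, 45, 342 and 36. Lambda constant genes had 13, 11, 61 and 9. HFD-KO 1 was the highest library for each kind of chain, from 3.86 times the HFD-WT mean for lambda V segments to 9.42 times for kappa V segments, whereas HFD-KO 2 lay between 0.376 and 1.55 times. Leaving out Ighm, the gene with the most reads, left HFD-KO 1 at 6.15 times and HFD-KO 2 at 1.29 times the HFD-WT mean.

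**Figure D1:**
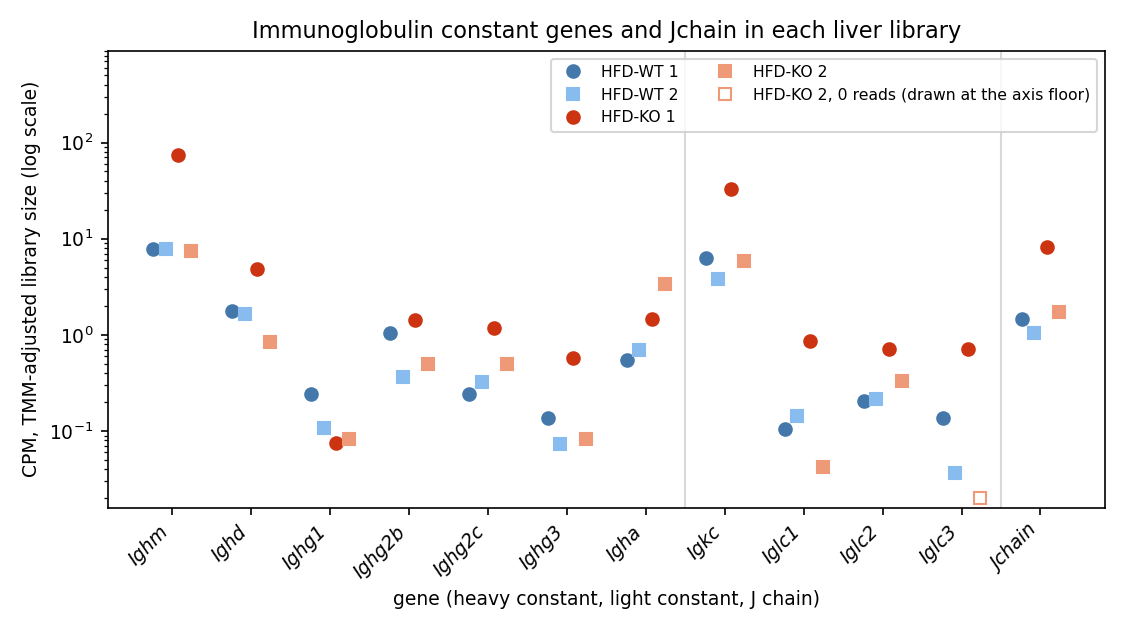
CPM (log scale) of each heavy constant gene, light constant gene and Jchain in the 4 liver libraries, 1 symbol per library; the open symbol is a library with 0 reads. HFD-KO 1 lies above the other libraries for Ighm (73.9 CPM), Igkc (32.7 CPM) and Jchain (8.20 CPM), while Igha is highest in HFD-KO 2 (3.39 CPM) and Ighg1 has fewer CPM in each knockout library than in each wild-type library.

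Ighm, the mu constant region of IgM (GRCm39 chr12:113382178-113386350, minus strand), had 225, 216, 1945 and 178 reads. As CPM these were 7.77, 7.85, 73.9 and 7.45. The HFD-WT pair and HFD-KO 2 lay close together and HFD-KO 1 alone stood apart, at 9.46 times the HFD-WT mean against 0.954 times for HFD-KO 2. The fitted log2 difference was 2.39 (SE 0.85, edgeR adjusted p = 0.475), and it was -0.07 without HFD-KO 1. Ighd, the delta region that resting B cells splice from the same primary transcript, had 52, 45, 128 and 20 reads, or 1.79, 1.64, 4.86 and 0.837 CPM. The HFD-KO libraries thus enclosed the HFD-WT pair, HFD-KO 1 at 2.83 and HFD-KO 2 at 0.488 times its mean, and the log2 difference went from 0.75 with all libraries to -1.03 without HFD-KO 1. The ratio of Ighm to Ighd reads was 4.33, 4.80, 15.2 and 8.90, so that each knockout library exceeded each wild-type library.

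Igha, the alpha region of IgA (chr12:113218450-113223856), was highest in HFD-KO 2. It had 16, 19, 39 and 81 reads, or 0.552, 0.690, 1.48 and 3.39 CPM. Both HFD-KO libraries exceeded both HFD-WT libraries, HFD-KO 1 at 2.38 times and HFD-KO 2 at 5.46 times the HFD-WT mean. By edgeR the log2 difference was 1.96 (SE 0.47, unadjusted p = 0.00361, adjusted p = 0.275). DESeq2 gave an adjusted p of 0.0444, edgeR without the filter on low counts 0.0356 and edgeR without HFD-KO 1 a value of 6.79e-05, within a range of 6.8e-05 to 1 over 9 alternatives. Without HFD-KO 2 the log2 difference was 1.25.

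The gamma genes encode the subclasses of IgG and were thinly covered. Ighg2c had 7, 9, 31 and 12 reads (0.242, 0.327, 1.18 and 0.502 CPM), both HFD-KO libraries above both HFD-WT libraries, with a log2 difference of 1.56 (SE 0.57, edgeR unadjusted p = 0.0270, adjusted p = 0.483). Ighg2c passed the filter on low counts through the HFD-KO libraries alone, so this difference is given as a description. Ighg2b had 30, 10, 38 and 12 reads, so the groups overlapped, and its log2 difference of 0.48 (SE 0.63, edgeR adjusted p = 0.858) became -0.48 without HFD-KO 1 and -0.08 without HFD-WT 2. Ighg1 ran the other way, with 7 and 3 reads in HFD-WT and 2 in each HFD-KO library, and Ighg3 had 4, 2, 15 and 2. Ighg1 and Ighg3 were below the filter on low counts of the main test, and at 2 reads a library lies under the floor of 3.

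Among the light chain and joining genes the lead of HFD-KO 1 was plain. Igkc, the single kappa constant gene (chr6:70703419-70703950), had 184, 104, 860 and 141 reads, or 6.35, 3.78, 32.7 and 5.90 CPM. HFD-KO 2 lay between the HFD-WT libraries, and the log2 difference of 1.93 (SE 0.68, edgeR adjusted p = 0.474) became 0.22 without HFD-KO 1. Jchain (chr5:88667668-88675750) had 43, 29, 216 and 41 reads, or 1.48, 1.05, 8.20 and 1.72 CPM. Here HFD-KO 2 was just above both HFD-WT libraries, and the log2 difference of 1.97 (SE 0.65, edgeR adjusted p = 0.445) became 0.43 without HFD-KO 1. The lambda genes Iglc1 (3, 4, 23 and 1 reads), Iglc2 (6, 6, 19 and 8 reads) and Iglc3 (4, 1, 19 and 0 reads) were untested for low counts and highest in HFD-KO 1. Kappa took 93.4%, 90.4%, 93.4% and 94.0% of light constant reads, so the kappa share stayed within a few percentage points.

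Between the 5 constant and joining genes with the most reads, levels were compared per kilobase of annotated exon. On that scale Igkc led them in every library with 11.9, 7.10, 61.4 and 11.1 CPM per kilobase, followed by Ighm with 4.12, 4.16, 39.2 and 3.95. Jchain, at 1.07, 0.757, 5.89 and 1.23, and Ighd, at 0.945, 0.861, 2.56 and 0.441, came next, with Ighd above Jchain in HFD-WT 2. Igha was last of these 5 genes except in HFD-KO 2, where its 1.27 CPM per kilobase passed Ighd and lay beside Jchain. These orders cover counting error only and carry no test.

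Of the 142 genes, 8 passed edgeR's filter on low counts, namely Ighm, Ighd, Igha, Ighg2b, Ighg2c, Igkc, Jchain and the V segment Igkv3-4. None had an adjusted p under 0.05 by edgeR, where 0.054% of the 12967 genes tested were called higher and 0.0231% lower. At an unadjusted p under 0.05, 6 were higher (all but Ighd and Ighg2b) and 0 lower, against 4.25% and 4.73% of all genes tested. Ighg2c and Igkv3-4, both among the 6, passed the filter through the HFD-KO libraries alone and so had to lie higher there. The count of 6 is therefore a description and not a test against the share of all genes. Of the 8 genes, DESeq2 called 1 higher at an adjusted p under 0.05 (0.463% of all genes) and 2 at an unadjusted p (2.3%). Those 2 include Igkv3-4, so the same limit applies. Without the filter, when all 142 were tested by edgeR, 2 were higher at an adjusted p (0.468%) and 21 at an unadjusted p (4.03%). Without HFD-KO 2, 15 of 23 genes tested were higher at an adjusted p (1.69%) and 21 at an unadjusted p (5.77%). Genes that entered that test through HFD-KO 1 alone had to differ, so its counts are a description. Without HFD-KO 1, of 7 tested, Igha was higher by both rules (2.83% and 8.25%) and Ighd lower at an unadjusted p (8.12%). Which genes were called thus depended on which knockout library was kept. Over all 142 genes, 39 had both HFD-KO libraries above both HFD-WT libraries, where 18.9% of all genes with a read did. Ighg1, Ighv8-8 and Igkv3-7 had both below, where 17.7% did. These counts are a description, since they include V segments on 1 or 2 reads. A read was worth 0.03797 and 0.04185 CPM in HFD-KO but 0.03452 and 0.03634 CPM in HFD-WT. Igkv6-32 thus counted as higher on 1, 1, 1 and 2 reads.

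**Figure D2:**
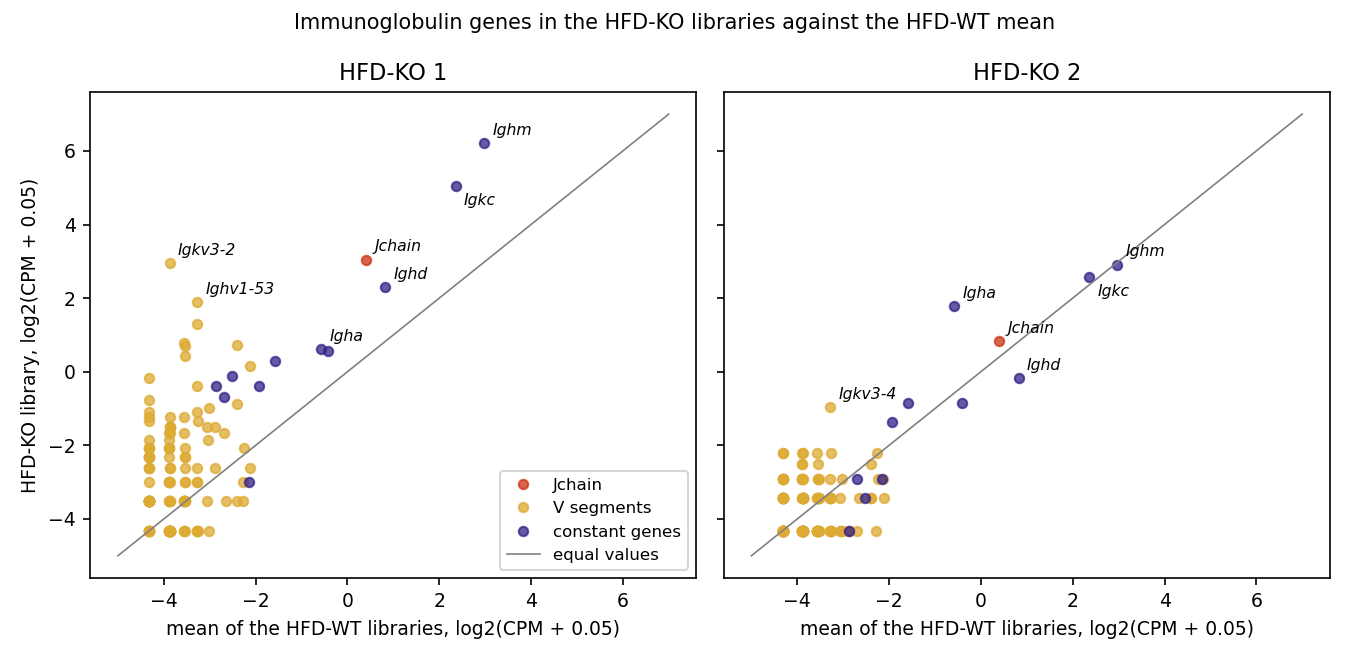
Each point is 1 of the 142 genes, at the mean of the HFD-WT libraries (horizontal) and in HFD-KO 1 (left) or HFD-KO 2 (right), both as log2(CPM + 0.05); the line marks equal values. In HFD-KO 1 most points lie above the line, with Ighm at 9.46 times the HFD-WT mean, and in HFD-KO 2 the points scatter about the line with Igha (5.46 times) above it.

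The class composition differed between the HFD-KO libraries as well as from HFD-WT. Ighm made up 66.0% of heavy constant reads in HFD-WT 1 (95% exact Clopper-Pearson interval 60.7 to 71.0%), 71.1% in HFD-WT 2 (65.6 to 76.1%), 88.5% in HFD-KO 1 (87.1 to 89.8%) and 58.0% in HFD-KO 2 (52.2 to 63.6%). The interval of HFD-KO 1 lay above the other 3, and that of HFD-KO 2 overlapped HFD-WT 1 but not HFD-WT 2. Igha made up 4.69% (2.71 to 7.51%), 6.25% (3.80 to 9.59%), 1.77% (1.26 to 2.42%) and 26.4% (21.5 to 31.7%). Its share was therefore lowest in HFD-KO 1 and highest in HFD-KO 2, with intervals apart from all others in both. Such intervals cover counting error only, since reads are not independent molecules, and the spread between mice is not in them.

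The share of Ighd was lower in each knockout library than in each wild-type library. It took 15.2% (11.6 to 19.5%) and 14.8% (11.0 to 19.3%) of heavy constant reads in HFD-WT, and 5.82% (4.88 to 6.89%) and 6.51% (4.02 to 9.88%) in HFD-KO. Both HFD-KO intervals lay under both HFD-WT intervals, although the Ighd reads themselves were highest in HFD-KO 1 and lowest in HFD-KO 2. The share of Ighg1 had the same order (2.05%, 0.987%, 0.091% and 0.651%), on 7 reads or fewer. Its intervals overlapped except between HFD-WT 1 (0.829 to 4.18%) and HFD-KO 1 (0.011 to 0.328%). The 4 gamma genes together took 14.1%, 7.89%, 3.91% and 9.12%. Ighg2b was the most read gamma gene in HFD-WT 1 (62.5% of gamma reads) and shared the lead with Ighg2c in HFD-KO 2 (42.9% each). Shares of 1 library are tied to each other, so a lower Ighd share can accompany more Ighm or more Igha.

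**Figure D3:**
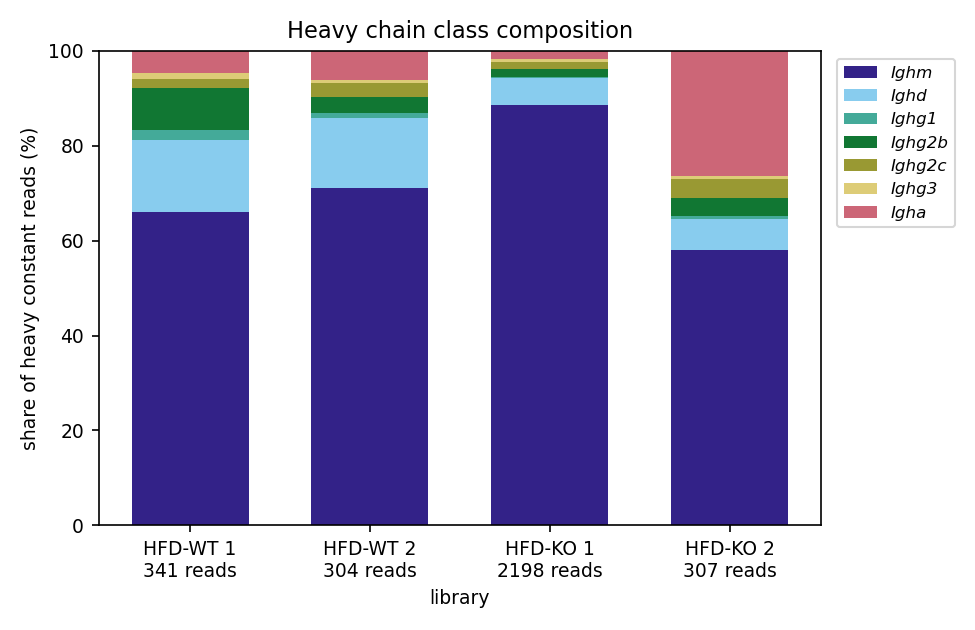
Share of each heavy constant gene among the heavy constant reads of a library (stacked bars, percent, read totals under the bars). Ighm fills 88.5% of the bar of HFD-KO 1, Igha fills 26.4% of the bar of HFD-KO 2, and Ighd is narrower in both HFD-KO bars (5.82% and 6.51%) than in both HFD-WT bars (15.2% and 14.8%).

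The V segments carry the diversity of the antibody, and the reads on them were spread over many segments in 3 libraries and concentrated on a few in HFD-KO 1. The germline sequences of the segments that led in HFD-KO 1 are shown with close relatives, because how alike they are bears on how surely a read can be given to 1 of them. They are from GENCODE M21 transcripts (GRCm38), printed 5′ to 3′ over the stretch from the first to the second complementarity-determining region. For the kappa segments, capitals mark the bases that differ from Igkv3-2:
Igkv3-2: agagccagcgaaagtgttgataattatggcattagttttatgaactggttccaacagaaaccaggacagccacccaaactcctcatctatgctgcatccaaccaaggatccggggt
Igkv3-1: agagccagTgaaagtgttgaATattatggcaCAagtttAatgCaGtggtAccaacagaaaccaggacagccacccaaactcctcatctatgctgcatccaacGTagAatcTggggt
Igkv3-4: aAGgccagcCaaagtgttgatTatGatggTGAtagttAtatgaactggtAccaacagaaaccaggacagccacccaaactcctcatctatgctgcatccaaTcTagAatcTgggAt
Igkv3-5: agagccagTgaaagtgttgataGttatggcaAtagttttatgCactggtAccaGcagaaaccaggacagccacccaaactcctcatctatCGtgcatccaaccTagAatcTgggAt
Igkv3-10: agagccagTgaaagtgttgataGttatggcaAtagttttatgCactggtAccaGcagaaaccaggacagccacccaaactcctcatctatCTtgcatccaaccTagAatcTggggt
For the heavy segments, capitals mark the bases that differ from Ighv1-53:
Ighv1-53: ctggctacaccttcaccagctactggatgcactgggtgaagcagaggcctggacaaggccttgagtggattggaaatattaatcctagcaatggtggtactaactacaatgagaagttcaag
Ighv1-72: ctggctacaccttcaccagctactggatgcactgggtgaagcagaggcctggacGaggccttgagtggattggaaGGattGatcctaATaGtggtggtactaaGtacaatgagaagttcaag
Ighv1-26: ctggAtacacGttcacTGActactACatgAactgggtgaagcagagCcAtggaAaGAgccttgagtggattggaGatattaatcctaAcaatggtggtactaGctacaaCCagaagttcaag
Ighv1-64: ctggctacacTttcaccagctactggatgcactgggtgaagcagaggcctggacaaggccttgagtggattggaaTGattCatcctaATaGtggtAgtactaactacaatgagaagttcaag
Within the 116 bases of the kappa stretch, Igkv3-1 differed from Igkv3-2 at 13 bases, Igkv3-4 at 15, Igkv3-5 at 12 and Igkv3-10 at 11. Within the 122 bases of the heavy stretch, Ighv1-72 and Ighv1-64 differed from Ighv1-53 at 8 bases each and Ighv1-26 at 18.

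Igkv3-2 (chr6:70675433-70676051 on GRCm39) had 0, 1, 203 and 1 reads, which made 36.1% (32.1 to 40.2%) of the kappa V reads of HFD-KO 1 and 2.13% or less in each other library. It had the most reads of any V segment in any library and lies 23495 bases from Igkj1, the first kappa J segment, whereas Igkv15-103, the leader of HFD-WT 1 with 9 reads, lies 2284637 bases away. Reads in HFD-KO 1 did not follow this distance throughout. Igkv3-4, 50185 bases away, had 19 there and Igkv5-39, 821585 bases away, had 42. Relatives of Igkv3-2 came after it in HFD-KO 1, Igkv3-5 with 44 reads and Igkv3-10 with 41. The whole Igkv3 family had 6, 7, 313 and 15 reads, or 7.32%, 14.9%, 55.6% and 17.9% of kappa V reads. Kappa V reads outside that family were 76, 40, 250 and 69, still 4.66 times the HFD-WT mean in HFD-KO 1 and 1.42 times in HFD-KO 2. The excess in HFD-KO 1 was thus larger on the Igkv3 family but not limited to it.

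Over their whole length, Igkv3-2 and its nearest relative Igkv3-1 were 92.8% identical with a longest shared run of 63 bases, shorter than a 100-base read. Igkv3-5 and Igkv3-10 were 98.3% identical with a shared run of 159 bases, so the division of reads between these is uncertain. The reference is of strain C57BL/6J while the mice had a mixed background, and the part of strain differences in these counts was not tested.

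Heavy V reads of HFD-KO 1 were led by Ighv1-53 (chr12:115122023-115122455), with 1, 2, 96 and 0 reads, or 28.1% (23.4 to 33.2%) of that library's heavy V reads and at most 4.44% elsewhere. Ighv1-72 had 1, 2, 63 and 1 reads and Ighv1-26 had 0, 2, 34 and 2. All of them belong to Ighv1, the largest heavy V family with 34 segments read here, which took 60.0%, 60.0%, 81.9% and 44.4% of heavy V reads. Ighv1-72 was 99.2% identical to Ighv1-62-3, a segment at 0 reads in every library, and 95.4% to Ighv1-53. Without Ighv1-53, heavy V reads were still 6.83 times the HFD-WT mean in HFD-KO 1 and 1.10 times in HFD-KO 2.

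The other libraries had leaders of their own, each on few reads. In HFD-WT 1 the most read heavy segments were Ighv1-64 (6 reads), Ighv1-82 (4) and Ighv5-17 (2, level with others), and Igkv15-103 (9) led the kappa segments ahead of Igkv1-110 and Igkv5-39 (7 each). In HFD-WT 2 they were Ighv4-1 (8), Ighv7-3 and Ighv1-9 (4 each), with Igkv1-88 (6), Igkv1-117 (5) and Igkv12-46 (3). In HFD-KO 2 they were Ighv14-2, Ighv14-3 and Ighv3-6 (4 each), with Igkv3-4 (11), Igkv1-110 and Igkv10-96 (4 each). No heavy or kappa segment led in more than 1 library, and the intervals of these shares were wide, as for Ighv4-1 in HFD-WT 2 with 17.8% (8 to 32.1%).

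Igkv3-4 was the V segment that passed the filter on low counts, and it did so through the HFD-KO libraries, where it had 19 and 11 reads against 2 and 1 in HFD-WT. Both knockout libraries were above both wild-type libraries. Having entered the test by that route it had to differ, and its log2 difference of 3.37 (SE 0.71, edgeR unadjusted p = 0.00179, adjusted p = 0.233) is given as a description. Its share of kappa V reads, in contrast, was highest in HFD-KO 2, at 13.1% (6.72 to 22.2%).

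The lambda locus has few V segments in the mouse. Iglv1 had 4, 6, 28 and 2 reads, Iglv2 had 7, 1, 1 and 1 and Iglv3 had 1, 0, 5 and 0. Iglv1 led except in HFD-WT 1, where Iglv2 did. Iglv1 and Iglv2 were 97.1% identical with a shared run of 104 bases, so reads could pass between them.

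**Figure D4:**
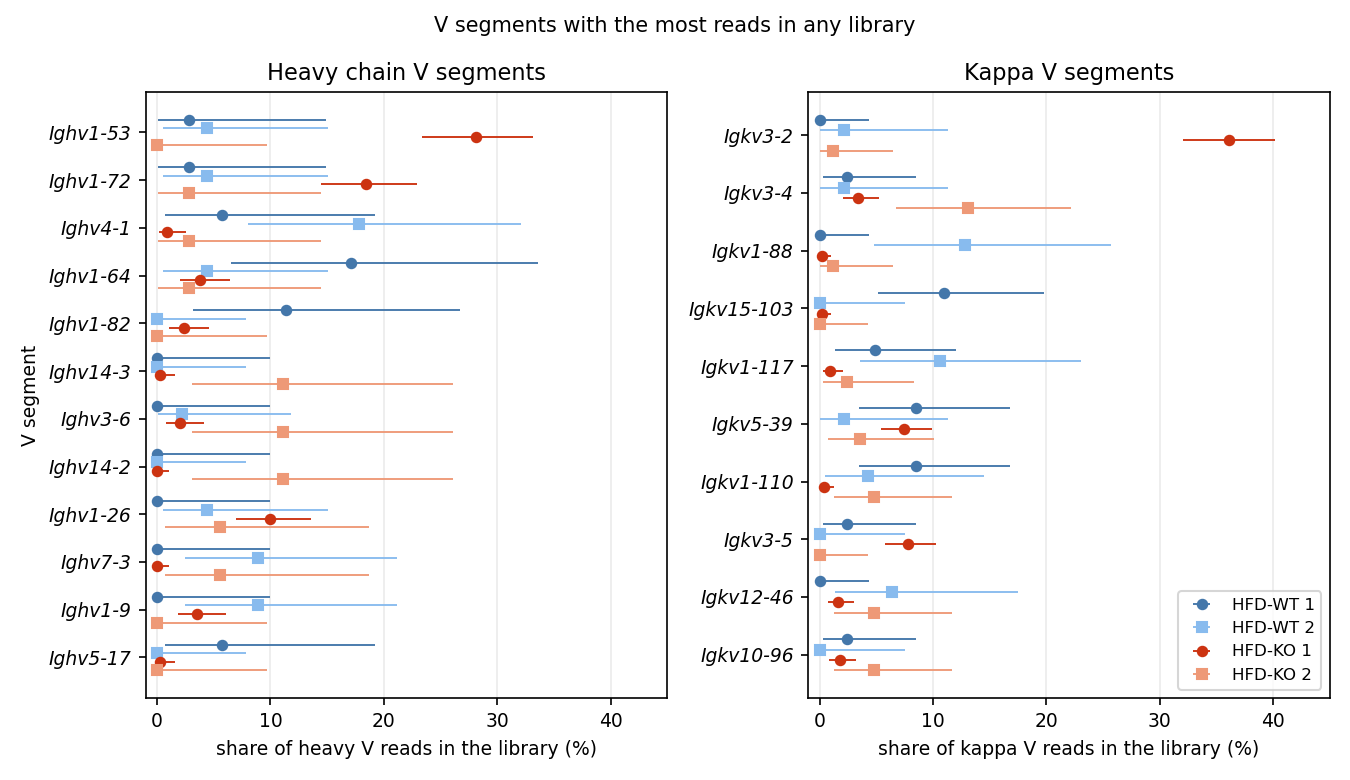
Share of the heavy V reads (left) or kappa V reads (right) of a library taken by the segments that led in any library, in percent, with exact 95% binomial intervals as bars. Ighv1-53 (28.1%) and Igkv3-2 (36.1%) stand apart in HFD-KO 1, and the shares of the other libraries have wide intervals, on 35 to 84 reads.

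Usage was summarised by how many segments were seen and how evenly. At least 3 reads fell on 12, 8, 57 and 12 V segments, and at least 1 read on 57, 57, 100 and 66. When the reads of each library were thinned to the 99 V reads of the smallest, the expected number of segments with a read was 49.8, 57.0, 37.7 and 58.3, lowest in HFD-KO 1, so its larger number of segments went with its larger number of reads. The inverse Simpson number, which is the count of equally used segments that would give the same evenness, was 33.6, 33.5, 13.6 and 40.1 over all V segments. It was lowest in HFD-KO 1 for heavy segments (13.2, 14.4, 7.61 and 16.2) and for kappa segments (20.0, 19.2, 6.51 and 24.2). The 3 most read kappa segments took 28.0%, 29.8%, 51.3% and 22.6% of kappa V reads.

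Of the 130 V segments read, 18 were seen in all 4 libraries and 45 in only 1 of them, of which 25 in HFD-KO 1. The HFD-WT libraries shared 27 segments, which were 47.4% of the 57 in each. The HFD-KO libraries shared 51, which were 51.0% of the 100 in HFD-KO 1 and 77.3% of the 66 in HFD-KO 2. Across genotypes, HFD-KO 1 held 45 (78.9%) of the segments of HFD-WT 1 and 42 (73.7%) of those of HFD-WT 2, which were 45% and 42% of its own. HFD-KO 2 held 32 (56.1%) and 36 (63.2%), which were 48.5% and 54.5% of its own. With so few reads a segment that was not seen lay under the floor of detection and was not shown to be absent. Reads on V segments relative to constant genes of the same chain were 0.103, 0.148, 0.156 and 0.117 for the heavy chain and 0.446, 0.452, 0.655 and 0.596 for kappa, and the kappa ratio of each knockout library exceeded that of each wild-type library.

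The markers of the cells that make antibody were read beside these genes. Of 20 B cell markers, 19 were highest in HFD-KO 1, where 26.5% of all genes with a read were highest. Ms4a1, a surface protein of B cells, had 21, 10, 69 and 7 reads, and Cd79a, which carries the signal of the antigen receptor, had 21, 26, 77 and 21. Neither of these defining markers was at 0 in any library, and like Ighm they were highest in HFD-KO 1. Among the B cell genes with the highest CPM, Cd37 had 118, 98, 156 and 62 reads and Cd22 had 61, 49, 100 and 22. Of 16 tested, 0 had an adjusted p under 0.05 by edgeR. At an unadjusted p, 0 were higher and 1 lower, against 4.25% and 4.73% of all genes tested. The median log2 difference of the 16 was 0.81, beside 0.01 for all genes tested, and -0.61 without HFD-KO 1. The lower gene was Ly6d, with 43.1, 51.5, 23.5 and 26.5 CPM (log2 difference -0.92, SE 0.11, edgeR adjusted p = 0.0578). Over 9 alternatives its adjusted p ran from 1.1e-06 to 0.341 and was under 0.05 in 5, the same alternatives as for Adarb1.

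Ratios to HFD-WT were taken for the 18 B cell markers, Ly6d left out, with over 3 HFD-WT reads. In HFD-KO 1 these were smaller than the ratios of Ighm, Igkc and Jchain, and like those of Ighd and Igha. Cr2, left out for its few HFD-WT reads, had 1, 0, 21 and 2 reads and so stood far higher in HFD-KO 1. Leaving out Ly6d, the B cell markers summed to 16.6, 15.5, 36.2 and 11.1 CPM. In HFD-KO 1 the 18 markers ran from 1.39 (Bank1) to 4.81 (Ms4a1) times the HFD-WT mean with a median of 2.88. The ratio was 9.46 for Ighm, 6.45 for Igkc, 6.46 for Jchain, 2.83 for Ighd and 2.38 for Igha. In HFD-KO 2 the median was 0.681. T cell markers had sums of 5.83, 7.27, 15.3 and 5.99 CPM and a median of 2.29 times the HFD-WT mean in HFD-KO 1. Of 12 such markers, 10 were highest there, against 26.5% of all genes with a read. Cd3e, part of the T cell receptor complex, had 9, 20, 46 and 6 reads, Cd4 had 26, 28, 50 and 21, and the kinase gene Lck had 19, 30, 68 and 33 (log2 difference 1.19, SE 0.42, edgeR unadjusted p = 0.0247, adjusted p = 0.475). The part of B cell and T cell content in the immunoglobulin values was not tested.

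**Figure D5:**
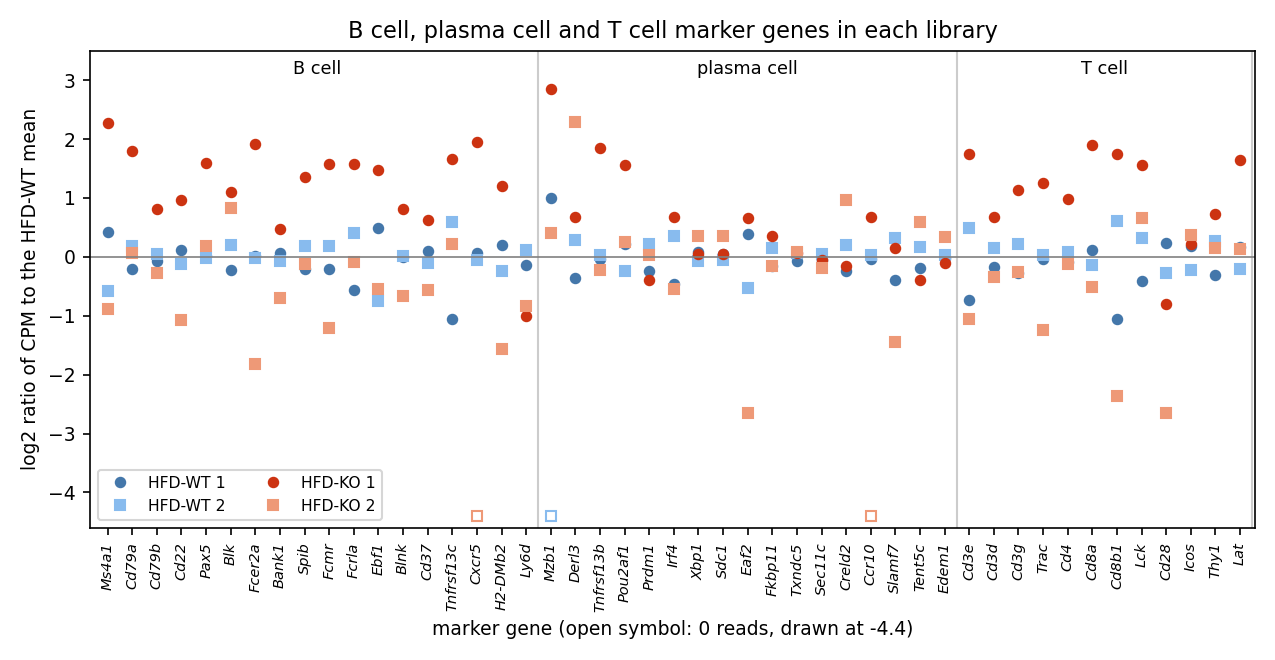
log2 ratio of the CPM of B cell, plasma cell and T cell markers with over 3 HFD-WT reads to their HFD-WT mean, 1 symbol per library; open symbols are libraries with 0 reads. In HFD-KO 1 the B cell and T cell markers lie mostly above 0 (medians of 2.88 and 2.29 times the HFD-WT mean, the former without Ly6d), while the plasma cell markers Sdc1, Xbp1 and Txndc5 lie near 0 in every library and Derl3 and Creld2 lie highest in HFD-KO 2.

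Plasma cell markers gave a mixed picture, since many of them serve secretion in hepatocytes too. Sdc1, Xbp1 and Txndc5, the members with the highest CPM, had 200 to 265 CPM, 131 to 177 CPM and 135 to 150 CPM. Mzb1, an endoplasmic reticulum protein of B and plasma cells, had 11, 0, 36 and 6 reads (7.2 times the HFD-WT mean in HFD-KO 1), and Tnfrsf17, the plasma cell receptor BCMA, had no more than 1 read in any library. Derl3, which takes part in the disposal of misfolded proteins, had 1.17, 1.82, 2.39 and 7.32 CPM (log2 difference 1.69, SE 0.52, edgeR unadjusted p = 0.0126, adjusted p = 0.409). Derl3 was highest in HFD-KO 2, and so was Creld2, a chaperone of the endoplasmic reticulum, with 30.9, 41.8, 32.5 and 71.2 CPM (log2 difference 0.51, SE 0.32, edgeR adjusted p = 0.692). Markers more specific to plasma cells and activated lymphocytes went both ways in HFD-KO 2. Slamf7 was at 0.366, Irf4 at 0.685 and Tnfrsf13b at 0.859 times the HFD-WT mean. Mzb1 was at 1.32, Pou2af1 at 1.19 and Prdm1 at 1.02 times that mean. Of 15 plasma cell markers tested, 1 was higher and 0 lower at an unadjusted p by edgeR, against 4.25% and 4.73% of all genes tested. The median log2 difference of the 15 was 0.20. Hemoglobin genes, which mark blood in the tissue, were also highest in HFD-KO 2, with 757, 600, 810 and 1146 CPM summed over 5 genes. Hba-a1, Hba-a2 and Hbb-bs had log2 differences of 0.58, 0.51 and 0.62 (edgeR adjusted p = 0.437, 0.451 and 0.436), and the part of blood in the Igha values was not tested.

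Genes of the machinery that rearranges and switches the antibody loci had few or no reads where they are specific to lymphocytes. Rag1 and Rag2, which cut the V, D and J segments, and Igll1 of the surrogate light chain had 0 reads in every library. Repair genes of general use were measured in all libraries, Msh6 at 9.15 to 10.6 CPM, Trp53bp1 at 8.16 to 10.2 and Apex2 at 7.29 to 9 CPM. Ung, a glycosylase that removes uracil from DNA, had 6.01, 4.72, 5.85 and 9.63 CPM, highest in HFD-KO 2 (log2 difference 0.52, SE 0.25, edgeR adjusted p = 0.608). Dntt, the polymerase that adds bases at the joints, had 26, 27, 56 and 35 reads (log2 difference 0.94, SE 0.33, edgeR unadjusted p = 0.0247, adjusted p = 0.475). It was the 1 gene of 12 tested in that list with an unadjusted p under 0.05, where 4.25% of all genes tested were higher. The list's median log2 difference was 0.06. In the pre-B list, 1 of 3 genes tested was higher, again Dntt, while Cd93 (8.32 to 11.5 CPM) and Il7r (0.712 to 1.02 CPM) had log2 differences of -0.26 and -0.18.

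Among the receptors that handle antibody, those with the highest CPM had like levels in all libraries. Pigr had 1531, 1421, 1450 and 1680 CPM, and Fcgrt, the neonatal receptor that protects IgG from breakdown, had 217, 221, 224 and 227. The Fc receptor gene Fcgr2b, expressed by liver endothelium, had 51.0, 56.3, 54.3 and 49.1. Fcmr, the IgM receptor of lymphocytes, which is in the B cell list too, had 0.414, 0.545, 1.44 and 0.209 CPM, highest in HFD-KO 1. Fcgr1 and Fcgr3, activating Fc receptors of macrophages, were lower in HFD-KO at an unadjusted p, with log2 differences of -0.95 (SE 0.28, edgeR adjusted p = 0.397) and -0.58 (SE 0.19, edgeR adjusted p = 0.444). They were the 2 of 9 receptor genes tested with such a p, and 0 were higher. Of all genes tested, 4.73% were lower and 4.25% higher at such a p. Among the factors that attract and keep B cells and plasma cells, Cxcl12 had 8372, 7258, 9950 and 8611 reads (log2 difference 0.42, SE 0.089, edgeR unadjusted p = 0.00196, adjusted p = 0.233). Vcam1, an adhesion molecule, had 24.3, 39.0, 18.5 and 14.4 CPM (log2 difference -0.94, SE 0.22, edgeR unadjusted p = 0.00336, adjusted p = 0.271). In neither gene did the groups overlap, where 18.9% of all genes with a read lay wholly higher in HFD-KO and 17.7% wholly lower. They were the 1 higher and 1 lower of 9 tested, against 4.25% and 4.73% of all genes tested.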

How the data were processed

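Sequencing was of liver RNA prepared with TRIzol and the MGIEasy directional kit and read as 100-base pairs on a DNBSEQ-G400RS. The authors aligned reads with the MGI tool and estimated expression in Partek with GENCODE. Versions, use of strand and treatment of reads with several alignments are not given in the sources used here. The methods name mm10, and the submitters' processing notes mm10 and GRCm39; positions are the table's, on GRCm39, and sequences are from GENCODE M21.

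The deposited read counts per gene are whole numbers without normalization and were the values tested. The authors' RPKM values served only to derive the lengths they used, which for 141 of 141 immunoglobulin genes compared were the whole gene span within 1%, introns included, and for Jchain 1393 bases of a span of 8083. The TPM and CPM columns, 8 in all, were not used. CPM here was computed from the counts with TMM-adjusted library sizes.

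HFD-KO was compared with HFD-WT in R 4.3.3 by the quasi-likelihood test of edgeR 4.0.16, two-sided, after filterByExpr and TMM, with Benjamini-Hochberg adjustment over 12967 genes. DESeq2 1.42.0, other scalings, no filter, a replicate block and leaving out each library were the alternatives. A second division of class reads by exon length was added after seeing the data. Intervals are exact binomial ones from scipy 1.17.1, and segments were aligned with Biopython 1.88. The edgeR steps were checked on simulated counts.

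Groups and replicate numbers came from the sample labels. The genes and lists were chosen with earlier results of these data known. Genes named were all constant genes and Jchain, the 3 V segments per locus with the most reads in each library (ties in table order), members with an unadjusted p under 0.05, and from each list the genes with such a p and up to 3 with the highest CPM. Other genes of the lists that the text names, among them Ms4a1, Cd79a, Bank1, Mzb1, Tnfrsf17, Cd3e, Creld2, Slamf7, Irf4, Tnfrsf13b, Pou2af1, Prdm1, Ung, Fcmr, Rag1, Rag2 and Igll1, were chosen after their values were seen, as were Igkv3-1, Igkv3-10, Ighv1-62-3, Ighv8-8 and Igkv3-7. The hepatocyte and pancreatic enzyme lists served to check the tissue. Promoter sequences were held for Jchain alone of these genes, so no promoter is shown. Results for some genes of these lists are not reported here, although the list counts include them.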

Additional observations from a re-analysis of the deposited data

How the results depend on the processing

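Among the immunoglobulin genes, the count of 0 at an adjusted p under 0.05 became 2 without the filter on low counts (Igha and Igkv3-2), 1 by DESeq2 (Igha), and 0 to 15 when a library was left out, the highest without HFD-KO 2. The count of 6 higher at an unadjusted p became 21 without the filter, 2 by DESeq2 and 1 to 21 when a library was left out, and that of 0 lower became 0 to 1. In the 10 lists of other genes, 8 higher became 17 without the filter, 5 by DESeq2 and 4 to 37 when a library was left out, 4 lower became 2 to 9, and 0 at an adjusted p became 2, 3 and 0 to 18. At an unadjusted p, the share of all genes tested that was higher was 4.25% in the main test, 4.03% without the filter and 2.3% by DESeq2. The shares of all genes, and the number of genes tested, also changed with the library left out. The counts for the lists are therefore a description and not a result about these lists. Without HFD-KO 1, the log2 differences of Ighm, Ighd and Ighg2b turned, and that of Ighg2b also without HFD-WT 2 (-0.08). With a library left out they ran from -0.07 to 3.24, from -1.03 to 1.5 and from -0.48 to 1.41. The log2 ratio of the summed genes ran from 0.23 without HFD-KO 1 to 2.87 without HFD-KO 2. Where the cause is not plain from the library left out, it was not tested.

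The share of Ighm per kilobase of the deposited length was 74.5%, 79.2%, 92.1% and 64.4%, and without Ighd it was 77.9%, 83.4% and 94.0% in the first 3 libraries. The number of V segments detected was 57, 57, 100 and 66 at a minimum of 1 read and 0, 0, 18 and 1 at 10 reads, against 12, 8, 57 and 12 at 3 reads, and thinning brought HFD-KO 1 to 9.05.

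The labels give both groups the same replicate numbers but no pairing, and the deviations of same-numbered libraries had a correlation of -0.0872. With the number as a replicate block, 0 immunoglobulin genes were called at an adjusted p, 6 were higher at an unadjusted p (3.62% of all genes tested), and 1 gene of the other lists was called, Ly6d. Those 6 again include Ighg2c and Igkv3-4, so their count is a description. The block also called Adarb1.

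The limits are 2 libraries per group, few reads on most V segments outside HFD-KO 1, and relatives whose shared stretches exceed a read. A gene with under 3 reads in a library was under the floor there.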
